A study of Homo sapiens with 2 samples.

Results

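The TRAF, IAP and A20 group described here is a set of 10 genes whose products add, edit, remove or bind ubiquitin, or recruit the enzymes that do, in the signalling complexes under the TNF receptors: BIRC2, BIRC3 and XIAP, TRAF1, TRAF2, TRAF3 and TRAF6, and TNFAIP3, TNIP1 and CYLD. They were chosen by gene name from the 44591 genes of the count table, with the fold changes of these same libraries already known, so their direction as a group is a description and not a result. All 10 were found. The cells were HSC-1, a line from a cutaneous squamous cell carcinoma, in which a control siRNA (siNC) or an siRNA to the long noncoding RNA LINP1 (siLINP1) was introduced. Per the sample labels, both cultures were transfected at 70% confluency, kept 6 h without serum and then 24 h with serum; the study's methods give another density and time. Total RNA was sequenced, with 1 library per condition. No difference between them therefore has a replicate check, no p-value was computed, and every interval given covers counting error only. In a bulk library, fewer cells of a type and less RNA per cell cannot be told apart.

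TRAF proteins and the cellular IAPs are recruited to the cytoplasmic tails of TNF-family receptors, where they attach ubiquitin chains that serve as a platform for the kinases of the NF-kB and MAPK pathways. A20 and CYLD remove or edit such chains and so limit the signal. Several of these genes are known targets of NF-kB, which makes them part of negative and positive feedback on their own pathway.

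Reads assigned to genes totalled 18829544 for siNC and 15383081 for siLINP1. LINP1 (chromosome 10, 6779344 to 6780901, plus strand, GRCh37) had 167 reads in siNC and 23 in siLINP1, which is -2.65 on the log2 fold scale (95% interval -3.35 to -2.02). Here and below, the fold compares siLINP1 with siNC after scaling by median-of-ratios size factors, and its interval follows from the exact binomial (Clopper-Pearson) limits on how a gene's reads divide between the libraries. Of 15 markers of squamous keratinocytes, 6 were under 1 RPKM (reads scaled to gene length and to the total of the library) in both libraries, namely KRT5, TP63, DSG3, PKP1, CDH1 and EPCAM at 0.0399 to 0.738 RPKM. EPCAM is a gene of simple epithelia that squamous cells often lack, so its low level does not bear on the label. KRT5, TP63, DSG3 and PKP1 are defining genes of squamous cells, and CDH1 is a gene of epithelia in general. The list summed to 134 RPKM in siNC and 141 in siLINP1, mostly from ITGB4 (51.4 and 41.6) and ITGA6 (40.9 and 54.1). Within it KRT14 was lower (243 and 87 reads, 0.414-fold), as was SFN (264 and 138, 0.604-fold), and COL17A1 was higher (162 and 400, 2.85-fold). KRT15 (1.40-fold), KRT6A (1.68-fold), PERP (1.40-fold) and ITGA6 (1.25-fold) were higher too. ITGB4 (0.765-fold) and CDH1 (0.248-fold, 14 and 3 reads) were lower. For the rest of the list the interval spanned no change. The mesenchymal list of 8 genes summed to 1560 and 1310 RPKM, of which VIM alone made up 1519 and 1278. There CDH2 (0.678-fold), FN1 (0.756-fold) and COL1A1 (0.481-fold) were lower and ZEB1 (1.46-fold) higher. The part of these differences in the results below was not tested. Of 10 blood cell markers, CD3E, CD3D, MS4A1 and HBB had no read in either library, and 8 were under 1 RPKM in both. The list summed to 50.2 and 48.6 RPKM, of which CD68 made up 48.7 and 45.8 RPKM. ITGAM was the exception, with 12 and 148 reads. Of 5 endothelial markers, all were under 1 RPKM in both libraries.

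The kB element is the DNA sequence that NF-kB binds, and the promoters of the 10 genes were searched for a strict and a looser spelling of it. The stretches below are shown because 5 of the 10 genes hold the strict one close to their start site. RefSeq promoter windows of GRCh38.p14, from 250 bases before to 50 after each annotated start, were searched on both strands for GGGNNTTTCC, a spelling settled on after the windows of these genes had been seen. All 10 genes had at least 1 window. Capitals mark the match, and each stretch is read 5′ to 3′ on the strand of its gene and ends at or before the start site.
TNFAIP3 (chr6:137867167-137867238, plus strand): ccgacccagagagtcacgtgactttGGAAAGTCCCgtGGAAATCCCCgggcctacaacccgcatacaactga
BIRC3 (chr11:102317260-102317319, plus strand): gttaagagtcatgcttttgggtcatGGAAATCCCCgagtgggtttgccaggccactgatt
CYLD (chr16:50741872-50741931, plus strand): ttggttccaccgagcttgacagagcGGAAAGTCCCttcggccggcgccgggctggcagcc
TNIP1 (chr5:151081042-151081101, minus strand): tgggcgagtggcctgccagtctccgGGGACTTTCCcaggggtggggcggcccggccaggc
TRAF3 (chr14:102777391-102777448, plus strand): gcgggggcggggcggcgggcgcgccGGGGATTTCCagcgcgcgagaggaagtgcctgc

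TNFAIP3 held 2 matches, which begin 67 and 55 bases before the start and lie 2 bases apart, both on the strand opposite to the gene. BIRC3 and CYLD also held the match on the opposite strand, and TNIP1 and TRAF3 on their own. The match began 199 bases before the start in BIRC3, 189 in CYLD, 42 in TNIP1 and 33 in TRAF3. For CYLD, 1 of 3 windows held it, and for TNIP1 1 of 2. No match was found in the windows of BIRC2, XIAP, TRAF1, TRAF2 or TRAF6. Over all 35116 windows of the table, 1.91% held this motif, and 2.88% of the 11822 genes with at least 10 reads that had a window did in at least 1 window. The looser spelling GGGNNNTTCC, which includes the stricter one, was found in the same 5 genes, and in 9.91% of those 11822 genes. A match says that these letters are in the window, not that a factor was bound.

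Relative to siNC, all 10 genes had a higher scaled count in siLINP1-treated cells, but by very different amounts. TRAF1, BIRC3, TNFAIP3 and CYLD were between 2.96- and 4.33-fold higher. TRAF3 and BIRC2 followed at 1.86- and 1.65-fold, and TRAF6, TRAF2, TNIP1 and XIAP were between 1.04- and 1.40-fold. By the 2-fold criterion, 4 of the 10 were higher and 0 lower. Of the 19840 genes with at least 10 reads over both libraries, 6.74% were past 2-fold upward and 5.33% downward. By 1.5-fold, 6 of the 10 were higher and 0 lower, where 14.4% of all genes kept were higher and 13.0% lower. The whole interval lay above no change for 9 of the 10 (23.0% of all genes) and above 2-fold for 4 of the 10 (1.59%). The group was well read, with 650 to 5912 reads per gene over both libraries. Among the 8659 genes with at least 650 reads, 1.57% were more than 2-fold higher and 31.5% had the whole interval above no change. The median log2 fold change was 0.81 for the 10 genes and -0.02 for all genes kept. The values of this contrast were known when the genes were picked, so nothing is read from these counts beyond the size of each change.

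**Figure D1:**
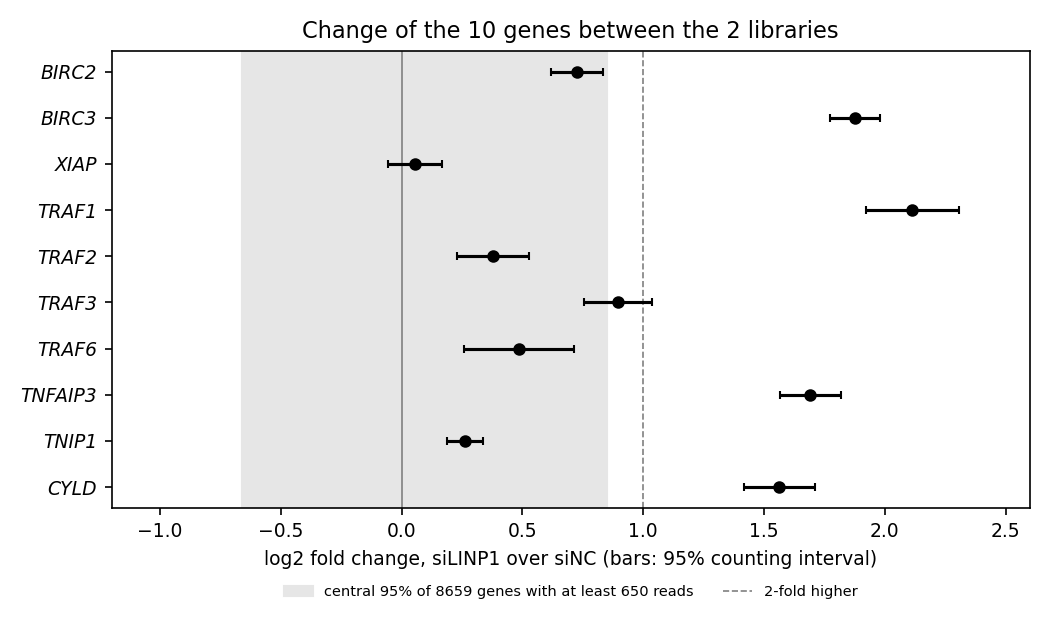
The log2 fold change of each gene, siLINP1 over siNC, from 1 library per condition; points are the values, bars the 95% counting interval, the grey band holds the central 95% of the 8659 genes with at least 650 reads (-0.66 to 0.85) and the dashed line is 2-fold. BIRC3, TRAF1, TNFAIP3 and CYLD lie beyond 2-fold with their whole interval, and the interval of XIAP spans 0.

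The inhibitor of apoptosis proteins BIRC2 (cIAP1), BIRC3 (cIAP2) and XIAP are RING ubiquitin ligases. The cellular IAPs ubiquitinate RIPK1 and NIK at TNF receptors, and XIAP is best known as a direct inhibitor of caspases. BIRC3 (chromosome 11, 102188181 to 102210134, plus strand, GRCh37) had 969 reads in siNC and 3077 in siLINP1. The log2 fold was 1.88 (95% interval 1.77 to 1.98), and 26 of the 8659 well-read genes had a larger one. BIRC2, its paralog, begins 7779 bases further along the same strand (102217913 to 102249401). Its reads numbered 1209 and 1729, with a log2 fold of 0.73 (95% interval 0.62 to 0.83). Both cellular IAPs were higher in siLINP1, BIRC3 by the larger factor. XIAP (chromosome X, 122993662 to 123047829, plus strand) had 1367 and 1229 reads. On the log2 scale the fold was 0.06 (95% interval -0.06 to 0.17), so counting error alone spans no change for XIAP.

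The ratio of BIRC3 to BIRC2 reads within a library does not depend on the scaling. It was 0.801 in siNC and 1.78 in siLINP1, which is a 2.22-fold shift (95% interval from 2-fold to 2.46-fold). BIRC3 to XIAP shifted by 3.53-fold (95% interval 3.17 to 3.93), from 0.709 to 2.50. These neighbouring paralogs could exchange few reads: of the 3715 windows of 50 bases in the canonical BIRC2 transcript of GENCODE, 11 are found in a BIRC3 transcript, and of the 6828 in BIRC3 none was found in a transcript of another gene. In XIAP, 4.81% of the windows recur in other genes, chiefly the pseudogene XIAPP1. On the RPKM scale, where levels can be compared between genes, BIRC2 led in siNC with 15.1, ahead of XIAP with 8.50 and BIRC3 with 7.45. In siLINP1 BIRC3 led with 28.9, ahead of BIRC2 with 26.4 and XIAP with 9.35. BIRC3 thus went from 24.0% to 44.8% of the summed RPKM of these 3 genes, XIAP from 27.4% to 14.5% and BIRC2 from 48.6% to 40.8%, while the sum went from 31.0 to 64.6 RPKM.

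**Figure D2:**
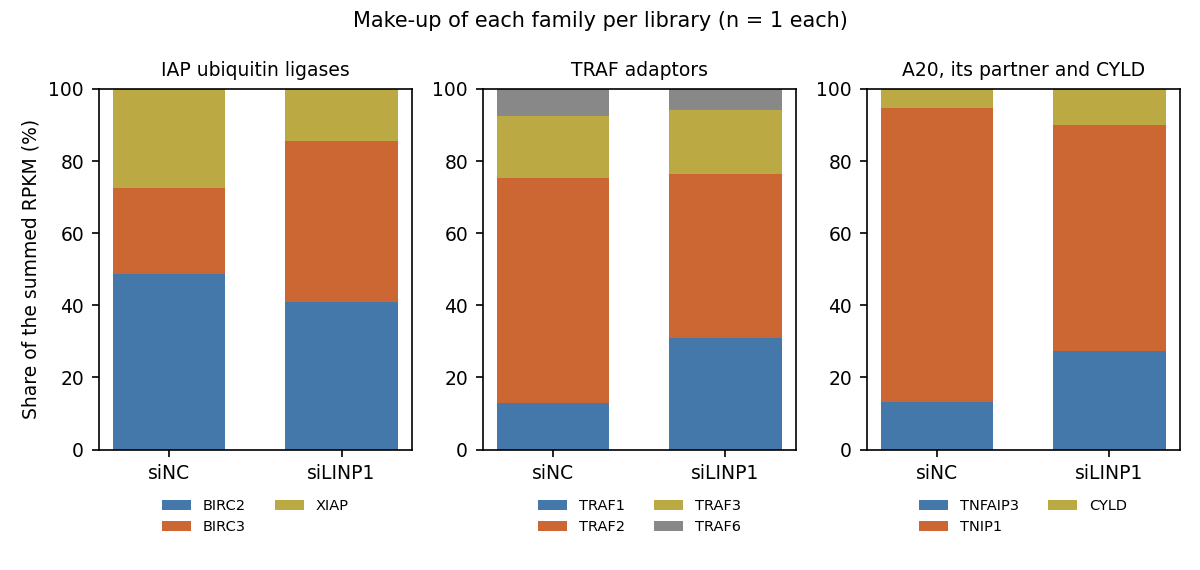
Share of each gene in the summed RPKM of its family, in percent, for the siNC and the siLINP1 library (n = 1 each). BIRC3 goes from 24.0% to 44.8% of the IAP ligases, TRAF1 from 12.8% to 30.9% of the TRAF adaptors and TNFAIP3 from 13.2% to 27.4% of the last group.

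TRAF proteins link receptors to the ligases and kinases. TRAF2 brings the cellular IAPs to the receptor, TRAF1 lacks a RING finger and acts through TRAF2, TRAF3 holds down the noncanonical NF-kB pathway together with TRAF2 and the cellular IAPs, and TRAF6 serves the Toll-like and IL-1 receptors. TRAF1 (chromosome 9, 123664671 to 123691451, minus strand) had 287 reads in siNC and 1074 in siLINP1. With a log2 fold change of 2.11 (95% interval 1.92 to 2.31), it was the highest of the 10, and 17 of the well-read genes had a larger value. TRAF2 (chromosome 9, 139780965 to 139821067, plus strand) had 698 and 785 reads, and its log2 fold change was 0.38 (95% interval 0.23 to 0.53). TRAF1 was thus the member of this pair with the larger change. The ratio of TRAF1 to TRAF2 reads was 0.411 in siNC and 1.37 in siLINP1, a 3.33-fold shift (95% interval 2.81 to 3.94).

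TRAF3 (chromosome 14, 103243816 to 103377837, plus strand) had 656 and 1055 reads. At a log2 fold change of 0.89 (95% interval 0.75 to 1.04) it lay just short of 2-fold, with an interval that reaches past it. The ratio of TRAF3 to TRAF2 reads went from 0.940 to 1.34 (1.43-fold, 95% interval 1.24 to 1.65). TRAF6 (chromosome 11, 36505317 to 36531863, minus strand) was the least read gene of the group, with 294 and 356 reads. Its log2 fold change of 0.49 had an interval of 0.26 to 0.71, and 2.64% of the windows of its transcript recur in other genes, among them the pseudogene TRAF6P1. By level, TRAF2 led the family in both libraries, with 16.3 RPKM in siNC and 22.4 in siLINP1. TRAF1 was at 3.33 RPKM, below TRAF3 with 4.48, in siNC and at 15.3, above TRAF3 with 8.82, in siLINP1. Its share of the summed TRAF level went from 12.8% to 30.9%, and that of TRAF2 from 62.5% to 45.4%.

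TNFAIP3 encodes A20, which edits ubiquitin chains on RIPK1 and other proteins and ends NF-kB signalling. TNIP1 (ABIN1) binds A20 and ubiquitin, and CYLD is a deubiquitinase that removes the chains TRAF proteins and LUBAC build. TNFAIP3 (chromosome 6, 138188325 to 138204451, plus strand) had 718 reads in siNC against 2006 in siLINP1. Its log2 fold was 1.69 (95% interval 1.57 to 1.82). CYLD (chromosome 16, 50775961 to 50835846, plus strand) had 536 and 1370 reads, with a log2 fold of 1.56 (95% interval 1.42 to 1.71). Of the well-read genes, 33 and 42 had larger values than TNFAIP3 and CYLD. Both enzymes that take chains apart were thus past 2-fold in the same comparison as BIRC3 and TRAF1, which act in the complexes that carry the chains.

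TNIP1 (chromosome 5, 150409504 to 150467221, minus strand) was the most read gene of the group, with 2903 and 3009 reads and a log2 fold change of 0.26 (95% interval 0.19 to 0.34). Under scaling by the total count it was 0.34, outside that interval. The ratio of TNFAIP3 to TNIP1 reads went from 0.247 to 0.667, a 2.70-fold shift (95% interval 2.44 to 2.98). TNIP1 still had the highest level, 49.5 RPKM in siNC and 62.8 in siLINP1, against 8.05 and 27.5 for TNFAIP3 and 3.23 and 10.1 for CYLD. Reads of antisense genes were few: the genes of the table that overlap TNFAIP3 on the other strand had 7 and 19 reads in siNC and 11 and 20 in siLINP1, and those that overlap CYLD had at most 11 reads in a library. Whether the counting used strand is not given in the sources used here.

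**Figure D3:**
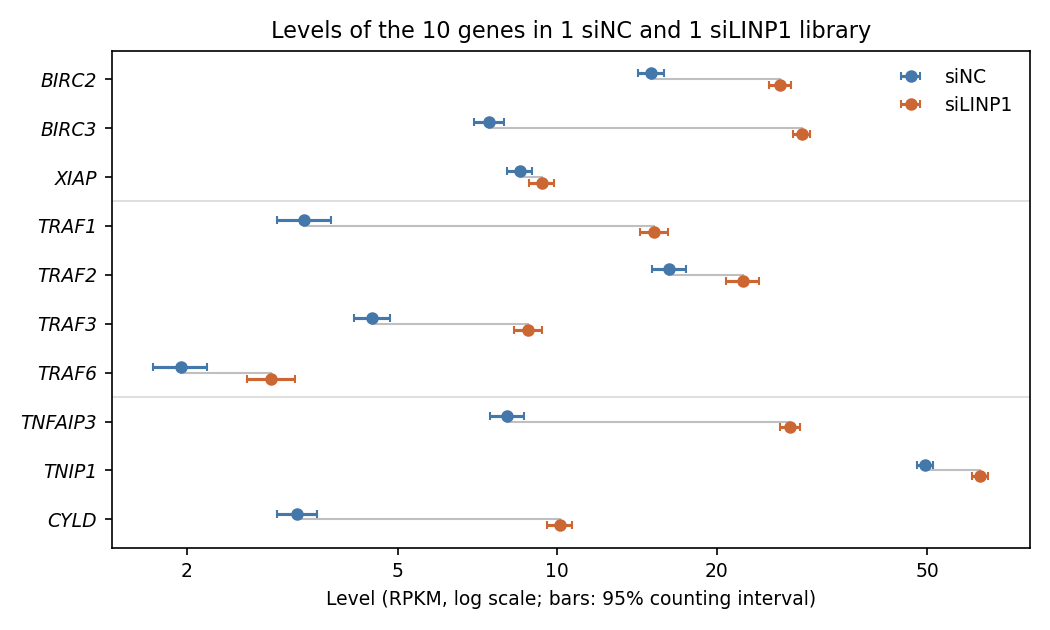
Level of each gene in RPKM (log axis) in the siNC (blue) and siLINP1 (orange) library, with the 95% Poisson interval of its count; grey lines join the libraries and divide IAP, TRAF and A20/CYLD genes. Intervals of the 2 libraries are apart for 9 of the 10 genes and overlap for XIAP.

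The order of the 10 levels differed between the libraries. In siNC it ran from TNIP1 over TRAF2, BIRC2, XIAP, TNFAIP3, BIRC3, TRAF3, TRAF1 and CYLD to TRAF6 with 1.95 RPKM. The Poisson intervals of TRAF2 and BIRC2, of XIAP, TNFAIP3 and BIRC3 as neighbours in that order, and of TRAF1 and CYLD overlapped. In siLINP1 it ran from TNIP1 over BIRC3, TNFAIP3, BIRC2, TRAF2, TRAF1, CYLD, XIAP and TRAF3 to TRAF6 with 2.89 RPKM. There the intervals of BIRC3 and TNFAIP3, of TNFAIP3 and BIRC2, of CYLD and XIAP, and of XIAP and TRAF3 overlapped. BIRC3 moved from the sixth place to the second and XIAP from the fourth to the eighth, while TNIP1 stayed first and TRAF6 last.

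The genes with a promoter match shown above had log2 folds of 1.88 for BIRC3, 1.69 for TNFAIP3, 1.56 for CYLD, 0.89 for TRAF3 and 0.26 for TNIP1. Those without either spelling in their windows had 2.11 for TRAF1, 0.73 for BIRC2, 0.49 for TRAF6, 0.38 for TRAF2 and 0.06 for XIAP. The ranges overlap, and the relation of match and fold was not tested. Other spellings of the kB element and bases outside the windows were not searched.

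An siRNA can also lower other transcripts through its seed, bases 2 to 8 of the guide strand, when the 3′UTR holds the complementary bases. The study's list of oligonucleotides gives the following siRNAs against LINP1 as sense strands, and its text does not name which was sequenced. Capitals mark the bases that a seed site in another transcript would share.
siLINP1_01: ccaactgcgggACTTCAGa
siLINP1_02: cactctccagcCTGCAAGa

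Of the 10 genes, 3 held such a site in the 3′UTR of the canonical GENCODE transcript, and 25.7% of 13597 genes with at least 10 reads and a 3′UTR did. TNFAIP3 held 1 site for siLINP1_01 and 2 for siLINP1_02, TRAF6 held 1 for siLINP1_01 and TRAF3 held 1 for siLINP1_02. All 10 genes were higher in siLINP1, those with a site and those without. XIAP held none in a 3′UTR of 6794 bases. Sites for the siNC oligonucleotide were not searched. The 3′UTRs of the group were long, with a median of 2467 bases against 1301 over all these genes. ATTTA, the core of AU-rich elements that shorten the life of many cytokine and feedback mRNAs, occurred 22 times in CYLD, 20 in XIAP, 15 in TRAF6 and 12 in BIRC3. It occurred 6 times in TRAF3, 5 in TNFAIP3, 3 in BIRC2, 1 time in TRAF1 and not at all in TRAF2 and TNIP1. Per kilobase of 3′UTR the median was 2.49 for the group and 1.68 for all these genes, with the highest density in BIRC2 (6.12), then BIRC3 (5.21) and CYLD (4.05), and 0.380 in TRAF1. The value of BIRC2 rests on 3 occurrences in a 3′UTR of only 490 bases. The part of seed sites and AU-rich elements in the changes was not tested.

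The rest of the pathway was taken from a list of 117 genes, of which 100 had at least 10 reads over both libraries. Their median log2 fold change was 0.03, beside -0.02 for all genes kept. Past 2-fold there were 6 genes upward and 7 downward. Of the 85 with at least 100 reads it was 4 and 1, where 2.71% and 1.12% of all 13336 such genes were. Of the 100, 34 had the whole interval above no change, 31 below it and 35 across it. Over all genes kept, 6.74% and 5.33% were past 2-fold upward and downward, and 23.0% and 25.6% had the whole interval above and below no change. The pathway genes had a median of 1529.5 reads and all genes kept 437, and intervals narrow with more reads. Of the 8659 genes with at least 650 reads, 2727 had the whole interval above no change and 3353 below it.

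Among ligands, TNF itself had 0 reads in siNC and 2 in siLINP1. IL1B, which signals through TRAF6, was lower, with 266 and 95 reads (log2 fold change -1.28, 95% interval -1.63 to -0.93). The other ligands past 2-fold were thinly read. TNFSF12, TNFSF13B, TNFSF14, TNFSF15 and EDA were lower, with 9 to 45 reads in siNC and 1 to 14 in siLINP1. LTB had 25 and 46 reads, and TNFSF4 2 and 11, a 6.36-fold difference with an interval of 1.39 to 59.0. CD70 was the most read ligand, with 3561 and 2567 reads (-0.26, 95% interval -0.34 to -0.19).

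Among receptors, TNFRSF9 (4-1BB), which signals through TRAF1 and TRAF2, had 143 and 364 reads and a log2 fold of 1.56 (95% interval 1.27 to 1.85). IL1R1, the signalling receptor of IL-1, had 68 and 164 reads (1.48, 95% interval 1.06 to 1.91). TNFRSF12A, the receptor of TWEAK, was the most read with 4127 and 6757 reads, at 0.92 (95% interval 0.86 to 0.98). Of the 19 receptors kept, 9 had the whole interval above no change and 7 below it, where 23.0% and 25.6% of all genes kept did. TNFRSF1A, the main receptor of TNF and the next most read, was lower, with 5515 and 3615 reads (-0.40, 95% interval -0.46 to -0.34), as were CD40 (-0.53), TNFRSF14 (-0.56) and TLR3 (-0.78). Scaling by the total count put TNFRSF12A at 1.00 and removal of the trend with gene length at 1.13, which is past 2-fold.

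Among ligases and E2 enzymes, PELI1 and PELI2, Pellino ligases that act with IRAK kinases, had log2 fold changes of 1.21 (95% interval 1.01 to 1.40; 331 and 661 reads) and 1.12 (93 and 175 reads). The third Pellino gene, PELI3, was lower at -0.79 (95% interval -1.07 to -0.51, 315 and 158 reads). The E2 enzyme UBE2D3 had 4061 and 3576 reads, at 0.03. None was past 2-fold in either direction among 13 genes kept of receptor-proximal adaptors with the RIPK and IRAK kinases. The same held for 11 of the downstream kinases with their TAB and IKBKG subunits. It also held for 11 of the other deubiquitinases with the CYLD partner SPATA2. Of 13336 genes with at least 100 reads, which all genes of these sets had, 2.71% were past 2-fold upward and 1.12% downward. The whole interval lay above no change for 5, 3 and 5 genes of these sets in turn, and below it for 5, 1 and 1. Over all genes kept the shares were 23.0% above and 25.6% below. Of the 8659 genes with at least 650 reads, 2727 had it above and 3353 below. The intervals of IRAK2 (0.92, 95% interval 0.67 to 1.17), BCL10 (0.86, 0.72 to 1.01) and USP18 (0.85, 0.57 to 1.15) reached past 2-fold. The most read gene of each set was the kinase IRAK1 with 9400 and 8171 reads (0.01, 95% interval -0.04 to 0.05), the ubiquitin-binding subunit TAB2 with 1346 and 1359 (0.22) and the A20 paralog OTUD7B with 2473 and 2728 (0.35).

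The families of the 10 genes themselves were not higher throughout. TRAF7 had 4913 and 3486 reads (log2 fold change -0.29, 95% interval -0.35 to -0.22). TRAF4 was higher, with 2385 and 2910 reads (0.50, 95% interval 0.42 to 0.58), and TRAF5 had 396 and 309 (-0.15, 95% interval -0.37 to 0.07). The giant IAP BIRC6 had 2357 and 2637 reads (0.37, 95% interval 0.29 to 0.45), which became 0.21 when the trend with gene length was removed. BIRC5 had 1021 and 707 reads (-0.32, 95% interval -0.46 to -0.18) and NAIP 28 and 11 (-1.14, 95% interval -2.29 to -0.09). Of the partners, the A20 adaptor TAX1BP1 had 2278 and 2468 reads (0.33), the TRAF3-binding protein TRAF3IP2 1012 and 950 (0.12), and HTRA2, a protease that antagonises IAPs, 1779 and 1568 (0.03).

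**Figure D4:**
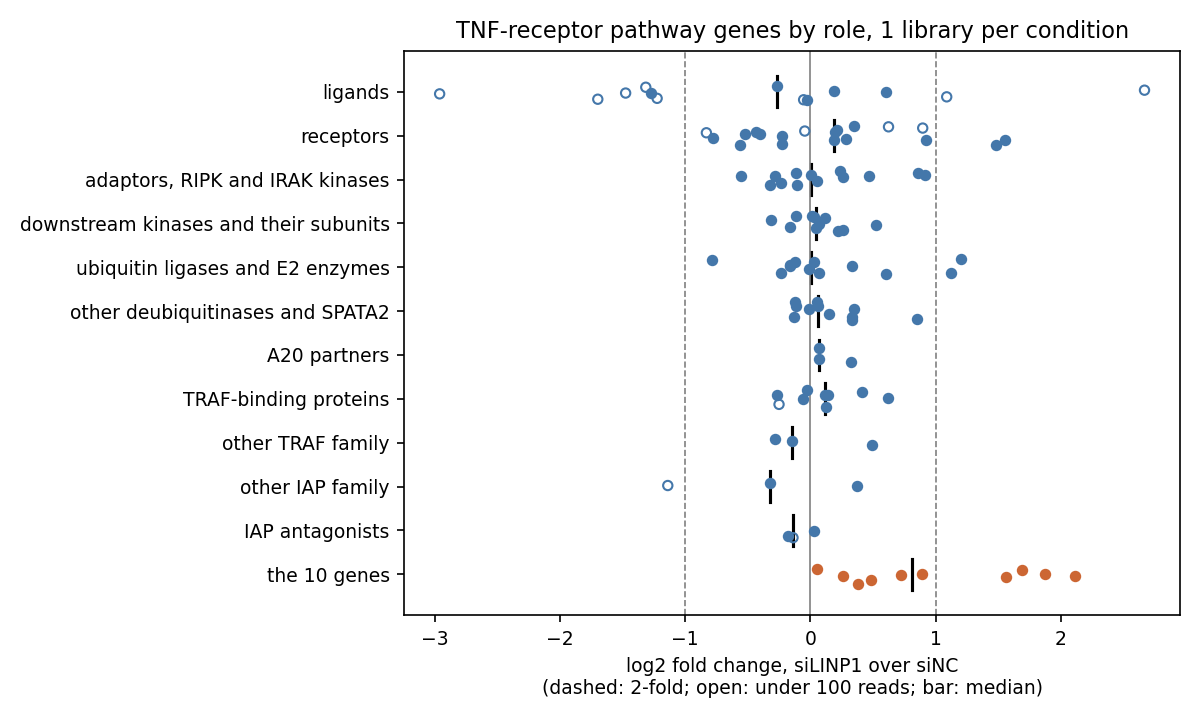
The log2 fold change, siLINP1 over siNC, of the 100 pathway genes kept, by role, and of the 10 genes (orange); open points are genes under 100 reads over both libraries, black bars the median of each role and dashed lines 2-fold. The median of each role other than the 10 genes lies between -0.32 and 0.19, and the largest spread is among the thinly read ligands. The 10 genes and the list were chosen with earlier results of these data known, so the difference between them is a description.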

How the data were processed

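Total RNA of HSC-1 cells was sequenced by the authors on an Illumina HiSeq instrument, aligned to GRCh37/hg19 with Tophat2 and counted on genes with HTSeq; the submitters' processing notes also name HISAT, HISAT2 and Bowtie2, with no role. The deposited values used here are raw read counts per gene, 1 library per condition, and the RPKM values that the authors computed from count, gene length and library total. Counting mode, strand setting and versions are not given in the sources used here. A further 12 columns of values per sample stand in the table and were left out.

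Size factors were medians of ratios (1.08 for siNC, 0.930 for siLINP1). Genes with at least 10 reads over both libraries were kept (19840). Fold changes carry no pseudocount, and where a library had 0 reads both counts were raised to at least a floor of 3 reads. Clopper-Pearson intervals (95%) were taken for folds, exact conditional intervals for ratios of reads and Poisson intervals for levels. All cover counting error only. The calculation of folds and intervals was checked on simulated counts. No p-value was computed, as 1 library per condition gives no spread between cultures.

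The 10 genes, the pathway and marker lists and the promoter motif were chosen with earlier results of these data known. Named from the pathway list were genes past 2-fold with the whole interval on that side of no change. The most read gene of each role was also named. TNF, TNFRSF1A, CD40, TNFRSF14, TLR3, PELI3, IRAK2, BCL10, USP18, TRAF4, TRAF5 and BIRC5 were added after their values were seen. So were the marker genes given with values. The alternatives were scaling by total count, edgeR TMM factors, protein-coding genes only, pseudocounts of 1 and 5, minimums of 1 and 100 reads, and removal of the trend with gene length (lowess). Promoters came from RefSeq (GRCh38.p14) and transcripts from GENCODE (GRCh37), each matched by symbol. Intervals were computed with scipy 1.17.1 under Python 3.11.15, tables were handled with pandas 2.3.3 and numpy 2.4.6, the length trend came from statsmodels 0.14.6, figures from matplotlib 3.10.9, and TMM factors from edgeR 4.0.16 in R 4.3.3.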

Additional observations from a re-analysis of the deposited data

How the results depend on the processing

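Under each of the 8 alternatives, 4 of the 10 genes were more than 2-fold higher, 6 more than 1.5-fold higher and 0 lower by either criterion. The median log2 fold change of the group ranged from 0.76 to 0.89. XIAP was at -0.04 with the trend with gene length removed and at 0.14 under scaling by the total count, which adds 0.08 to every log2 fold change. Besides TNIP1 and TNFRSF12A, that scaling took 6 named pathway genes outside their counting intervals. They were IRAK1 (0.09), UBE2D3 (0.11), CD70 (-0.18), TRAF7 (-0.20), OTUD7B (0.433) and BIRC6 (0.454). Among the pathway genes, those lower by more than 2-fold numbered 7, 1 with a minimum of 100 reads, since the other 6 had fewer reads, and 4 with a pseudocount of 5. Those higher by more than 2-fold numbered 6, and from 4 with a minimum of 100 reads to 9 with a minimum of 1 read. Of all genes kept, 6.74% were more than 2-fold higher, 8.54% of 29515 with a minimum of 1 read (median log2 fold change 0.15, since genes with 0 and 1 reads are then set to the floor in both libraries), 2.71% of 13336 with a minimum of 100 and 4.15% with a pseudocount of 5. No paired analysis was possible because each condition had 1 library, and for the same reason no library could be left out. The depth of TRAF6, 650 reads, limits its log2 fold change to an interval of 0.26 to 0.71.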

Other observations

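The genes next to the 10 on their chromosomes were taken as the nearest gene with at least 10 reads on each side. They were 18 genes outside the group, of which 11 were higher and 7 lower in siLINP1, with a median log2 fold change of 0.15. Of the 19840 genes kept, 9487 were higher and 10351 lower, with a median of -0.02. RAG1, with 58 reads in each library, counts as higher through the scaling alone. Next to BIRC3 and BIRC2, YAP1 had 2303 and 2602 reads (0.39, 95% interval 0.30 to 0.47) and TMEM123 2818 and 2217 (-0.14, 95% interval -0.22 to -0.06). Both neighbours of CYLD were past 2-fold upward and no other neighbour outside the group was, where 6.74% of all genes kept were. SALL1, a zinc finger gene 334040 bases away, had 571 and 1081 reads (1.13, 95% interval 0.98 to 1.28), and the antisense gene ENSG00000261644.1, 1334 bases away, had 0 and 12 reads. ITGAM, an integrin gene of myeloid cells, had 12 and 148 reads (3.83, 95% interval 2.99 to 4.82), while PTPRC had 1 and 4 and CD14 12 and 3.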
